A study of Mus musculus with 24 samples.

Results

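The choroid plexus is the epithelium in the brain ventricles that makes cerebrospinal fluid, and 10 of its genes were followed here across arrays of amygdala and hippocampus: Ttr, Kl, Folr1, Clic6, Kcne2, Igf2, F5, Sostdc1, Otx2 and Calml4. Every probe set (the group of probes designed for 1 transcript) whose single gene symbol in the platform annotation is one of these names, or an older name of the same gene, was taken. That gave 18 probe sets for the 10 genes, out of 18193 genes named on the array. The gene names were given and no measured value entered the rule, but the genes were proposed with earlier results of these arrays known.

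The arrays hold total RNA from male mice of a line selected for high freezing (line 25) and a line selected for low freezing (line 24) in contextual fear conditioning, in which a mouse freezes in a chamber where it was shocked before. There are 24 arrays in 4 groups of 6: high line amygdala, low line amygdala, high line hippocampus and low line hippocampus. In each tissue the arrays numbered 7 to 12 are high line and those numbered 1 to 6 are low line. Age, pooling and dissection are not given in the labels, each line is a single breeding line, and the p-values below measure only the spread between arrays, which may be partly technical. In bulk tissue, fewer cells of a type and less RNA per cell cannot be told apart.

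Choroid plexus epithelium is a sheet of ciliated cells joined by tight junctions around a core of stroma and leaky vessels. It moves ions, water, folate and hormones between blood and fluid and secretes carrier proteins into the fluid. Neither amygdala nor hippocampus contains it, although both adjoin the lateral ventricle, where it hangs. Among the members, Ttr encodes transthyretin, the carrier of thyroid hormone and of retinol-binding protein, and Igf2 encodes a growth factor secreted into the fluid. Kl encodes Klotho, a co-receptor for a fibroblast growth factor, and Folr1 a folate receptor. Kcne2 encodes a potassium channel subunit and Clic6 a member of the chloride intracellular channel family. F5 encodes coagulation factor V, and Sostdc1 a secreted antagonist of BMP and Wnt signals. Otx2 encodes a homeodomain transcription factor needed to form and keep the choroid plexus, and Calml4 a calmodulin-like protein.

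The members lie on 8 chromosomes, and Kcne2 and Clic6 are near neighbours on chromosome 16, with 5 protein-coding genes between them in the RefSeq annotation of GRCm38.p6. Promoter windows of 300 bases, 250 before the transcription start and 50 after it, were held by the RefSeq table (GRCm38.p6) for 6 members in 13 windows: Kl, F5, Igf2, Calml4, Otx2 and Kcne2. They were searched on both strands for TAATCC (reverse complement GGATTA), the core that OTX homeodomains read, because Otx2 is itself a member. The motif was found in 2 of the 13 windows, 1 of Otx2 and 1 of Igf2, against 7.06% of all 32851 windows in the table. TGTTTAC (reverse complement GTAAACA), a core read by forkhead factors, was found in 0 of the 13 windows, against 3.65% of all windows. The first pair of sequences below holds the TAATCC core, in capitals and in both as its reverse complement, and the second pair, from members that moved closely with the others, holds neither motif.
Otx2, chr14:48665060-48665359, minus strand: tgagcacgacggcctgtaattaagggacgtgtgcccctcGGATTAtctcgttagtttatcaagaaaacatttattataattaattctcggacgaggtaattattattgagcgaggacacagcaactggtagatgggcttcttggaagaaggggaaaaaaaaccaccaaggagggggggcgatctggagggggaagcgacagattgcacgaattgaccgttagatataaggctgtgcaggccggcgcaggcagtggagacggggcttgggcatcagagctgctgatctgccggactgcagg
Igf2, chr7:142658755-142659054, minus strand: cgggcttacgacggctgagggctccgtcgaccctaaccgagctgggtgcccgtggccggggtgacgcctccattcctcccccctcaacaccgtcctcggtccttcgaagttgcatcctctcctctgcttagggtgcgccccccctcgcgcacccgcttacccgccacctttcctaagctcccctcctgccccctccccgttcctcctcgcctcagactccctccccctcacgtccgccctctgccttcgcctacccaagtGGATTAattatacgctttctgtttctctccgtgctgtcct
Kcne2, chr16:92292139-92292438, plus strand: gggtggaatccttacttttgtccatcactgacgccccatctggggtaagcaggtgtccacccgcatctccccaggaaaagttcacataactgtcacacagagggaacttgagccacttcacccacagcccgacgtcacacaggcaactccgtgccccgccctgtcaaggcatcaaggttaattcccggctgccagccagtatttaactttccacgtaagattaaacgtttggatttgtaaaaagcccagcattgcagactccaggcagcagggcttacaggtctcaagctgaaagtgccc
Calml4, chr9:62857854-62858153, plus strand: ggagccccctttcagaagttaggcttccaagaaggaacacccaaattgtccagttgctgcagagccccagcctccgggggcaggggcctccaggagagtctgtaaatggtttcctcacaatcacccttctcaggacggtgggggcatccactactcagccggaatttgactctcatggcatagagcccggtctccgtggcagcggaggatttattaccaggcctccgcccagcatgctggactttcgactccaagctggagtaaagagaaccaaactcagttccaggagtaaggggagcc
In the Otx2 window the core begins 211 bases before the start (position -211), and in the Igf2 window it lies at position 11 after it. A match of letters in a window is a description and no evidence of binding.

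Most of the choroid plexus genes were among the most variable transcripts on the arrays, and their variation ran within the groups. Ttr varied most. Its 4 probe sets held ranks 1 to 4 of 45037 by the SD within groups of log2(signal + 16), the scale of every difference and correlation below. On the probe set with the widest range the signal was 149 on the lowest array and 13890 on the highest, 93.2 times as much. On the others the highest array had 33.7 to 52.6 times the signal of the lowest. The within-group SD of Folr1 ranked 22, Kcne2 23, F5 35, Clic6 40, Calml4 44, Otx2 53, Kl 55 and Sostdc1 254, each for the probe set with the highest mean over the 24 arrays, which stands for the gene from here on. Igf2 ranked 6697, with signals of 104 to 493 over the 24 arrays. The second probe sets of F5, Sostdc1, Clic6, Kl and Igf2 ranked 146, 206, 5786, 16320 and 18530. That of Clic6 was not dim, at 53.8 to 200.

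Ttr, on the probe set that stands for it, had a lowest, median and highest signal of 469, 7659 and 12357 in high line amygdala, against 1388, 9468 and 13177 in low line amygdala. In hippocampus these values were 1796, 11884 and 14158 in the high line, against 1325, 12406 and 15805 in the low line. Each of the 4 groups therefore held arrays of low and of high Ttr, and the groups overlapped almost completely. The lowest array was number 11 of high line amygdala, and the highest was number 6 of low line hippocampus.

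**Figure D1:**
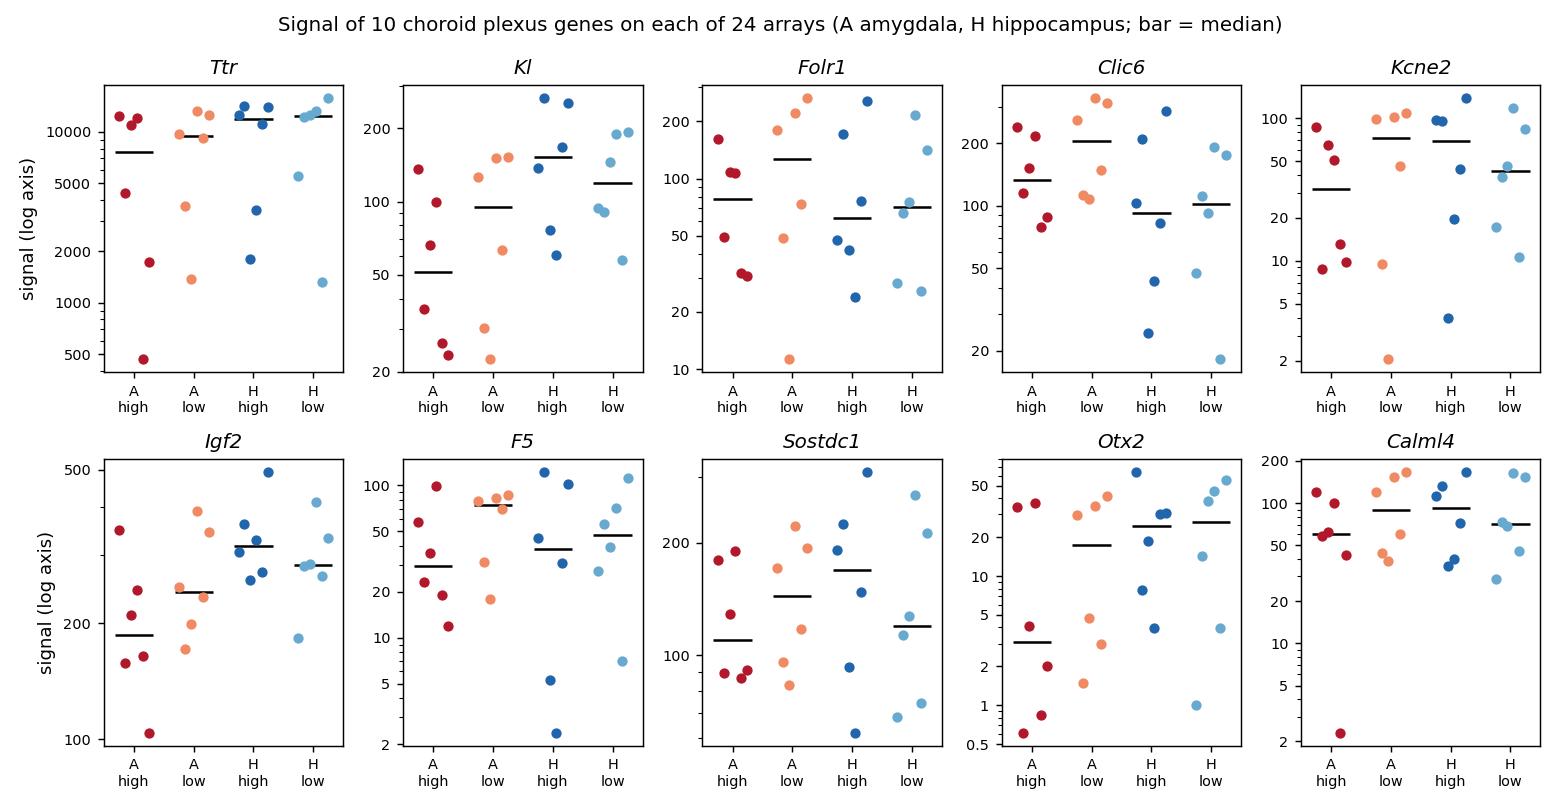
Signal of each choroid plexus gene on each array, on a log axis, with 1 panel per gene and 1 point per array (6 per group, A for amygdala and H for hippocampus), and a bar at the group median. In every panel the 4 groups overlap; Ttr runs from 469 to 15805.

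Among the transporters and channels, Folr1 had a lowest, median and highest signal of 30.7, 77.8 and 162 in high line amygdala, against 11.3, 127 and 264 in low line amygdala. In hippocampus its values were 24.0, 62.1 and 255 in the high line and 25.9, 70.8 and 216 in the low line. The group ranges lie over each other in both tissues.

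Clic6 had 78.7, 134 and 240 in high line amygdala, against 107, 204 and 330 in low line amygdala. In hippocampus the values were 24.2, 92.4 and 284 in the high line and 18.2, 101 and 193 in the low line. No amygdala array fell below 78.7, whereas the lowest hippocampus arrays went down to 24.2 and 18.2.

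Kcne2 had 8.83, 32.1 and 86.2 in high line amygdala, against 2.06, 72.8 and 108 in low line amygdala. In hippocampus it had 4.00, 69.5 and 138 in the high line and 10.7, 42.4 and 118 in the low line. Its lowest signals were near or under the constant of 16 that was added before taking logarithms, so differences among those arrays carry little weight.

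Of the receptors and regulators, Kl had 23.4, 51.3 and 137 in high line amygdala, against 22.6, 95.1 and 153 in low line amygdala. In hippocampus it had 60.7, 153 and 267 in the high line and 57.4, 120 and 194 in the low line. The lowest hippocampus arrays were thus above the lowest amygdala arrays, the reverse of Clic6.

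Otx2 was the weakest member, with 0.613, 3.06 and 37.0 in high line amygdala, against 1.48, 17.4 and 41.4 in low line amygdala. In hippocampus it had 3.99, 24.4 and 64.3 in the high line and 1.01, 26.2 and 55.9 in the low line. Its arrays fell into some of very low and some of clear signal, in all 4 groups.

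Of the secreted proteins, Igf2 had 104, 187 and 349 in high line amygdala, against 172, 241 and 390 in low line amygdala. In hippocampus it had 259, 317 and 493 in the high line and 183, 282 and 412 in the low line. Igf2 kept a signal above 100 on every array, including those on which the other members were lowest.

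Sostdc1 had 86.8, 110 and 190 in high line amygdala, against 83.4, 144 and 221 in low line amygdala, and in hippocampus 61.9, 169 and 309 in the high line and 68.1, 120 and 268 in the low line. F5 had 12.0, 29.7 and 98.9 in high line amygdala, against 17.8, 74.2 and 86.3 in low line amygdala, and in hippocampus 2.38, 38.1 and 123 in the high line and 7.05, 47.5 and 112 in the low line. Calml4 had 2.30, 60.3 and 120 in high line amygdala, against 38.4, 89.7 and 168 in low line amygdala, and in hippocampus 35.9, 92.0 and 167 in the high line and 28.8, 71.3 and 164 in the low line. In all 3 genes the ranges of high and low line overlapped in both tissues, and the Calml4 signal of 2.30 came from the amygdala array with the lowest Ttr.

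The same arrays were high or low for most members. On each array the number of members above their own median of the 24 arrays was counted, and the members were also averaged after each was scaled to mean 0 and SD 1. On 6 arrays all 10 members were above their median, and on 6 others none was. On 10 arrays 8 or more were above, on 9 arrays 1 or none, and only 5 arrays lay between. In high line amygdala the counts for arrays 7 to 12 were 10, 1, 4, 9, 0 and 0, and in low line amygdala those for arrays 1 to 6 were 8, 0, 0, 10, 3 and 10. In high line hippocampus they were 8, 9, 1, 1, 7 and 10, and in low line hippocampus 0, 4, 5, 10, 0 and 10. Arrays of high and of low choroid plexus signal thus occurred in all 4 groups.

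In the order of the scaled mean, array 12 of high line hippocampus stood first at 1.34 and array 11 of high line amygdala last at -1.38. The widest step between neighbours in that order, from -0.10 to -0.78, divided 15 upper arrays from 9 lower ones. The lower side held 5 amygdala and 4 hippocampus arrays.

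**Figure D2:**
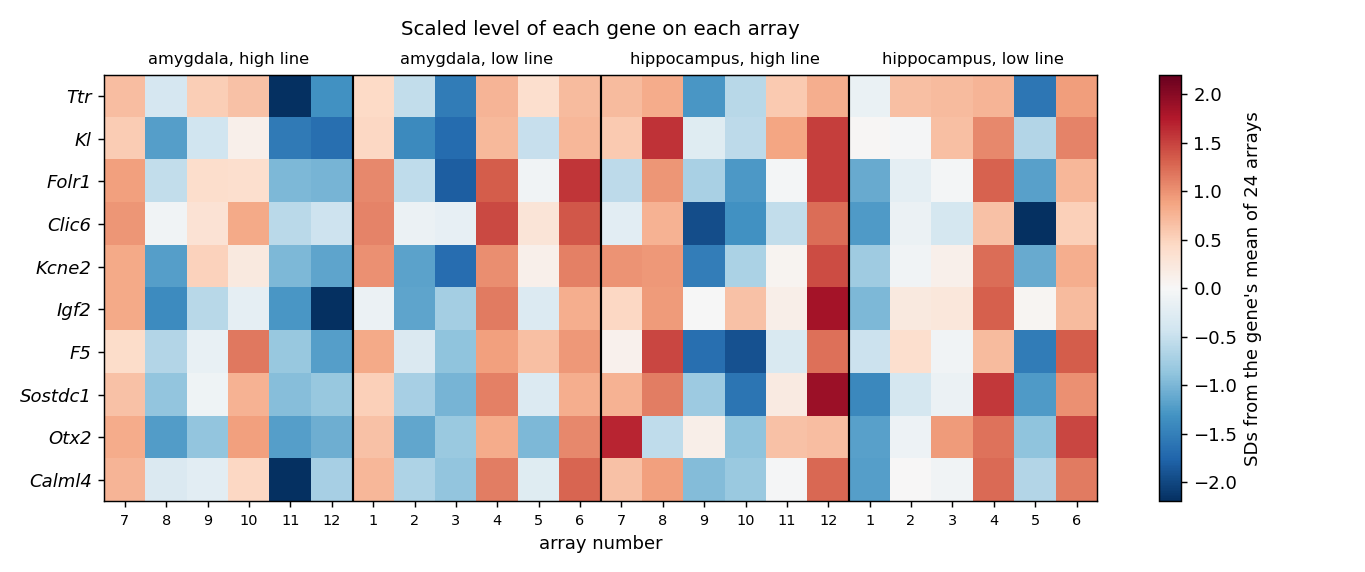
Level of each of the 10 genes (rows) on each of the 24 arrays (columns, by group and array number), in SDs from the mean of that gene over all arrays; red is above and blue below. Whole columns are red or blue: array 12 of high line hippocampus is above the median for 10 genes, and array 11 of high line amygdala for 0.

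Array quality measures are set beside this order here. Over 12 arrays per tissue the scaled mean of the members had a Pearson r of -0.08 (amygdala) and 0.22 (hippocampus) with the array median, and of -0.11 and -0.08 with the 5′ to 3′ ratio of the actin control probe sets. With the 18S control signal it was -0.12 and -0.38, and all these values are descriptions. The array medians were between 43.3 and 55.6. Arrays 7 and 8 of high line amygdala had actin ratios of 0.301 and 0.339, against 0.497 to 0.630 on the other amygdala arrays, and of this pair array 7 was high for 10 members and array 8 for 1. The 18S control signal was 295 to 1525 in amygdala and 3600 to 7093 in hippocampus, so it differs between the tissues, and its part in any tissue difference below was not tested.

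Across the 12 amygdala arrays every pair of members was positively correlated. Over the 45 pairs Pearson's r was between 0.69 and 0.98 with a median of 0.86, and Spearman's rho was between 0.71 and 0.99. All 45 passed in a two-sided permutation test of 100000 resamples with Benjamini-Hochberg adjustment over the 90 pairs of both tissues, at adjusted p of 0.000112 to 0.0149 for Pearson's r. The raw p was 1e-05 for 7 pairs, the smallest these permutations can give. The closest pair was Kl and Clic6, with r = 0.98 and rho = 0.96. The least close was Ttr and Otx2, with r = 0.69 and rho = 0.79 (permutation p adjusted to 0.0149 for r and 0.00438 for rho).

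Across the 12 hippocampus arrays r was between 0.45 and 0.96, again with a median of 0.86, and 38 of 45 pairs passed for Pearson's r and 40 for Spearman's rho. The closest pair was Sostdc1 with Calml4 (r = 0.96, rho = 0.94, adjusted permutation p = 0.00012 for r). Otx2 took part in 5 of the 7 pairs that missed the threshold. Its 9 pairs had a median r of 0.56, and 4 of them passed. The other pairs that missed it were Igf2 with Ttr (r = 0.46, rho = 0.78) and Igf2 with F5 (r = 0.55, rho = 0.71), and both passed by rho. In the heat map, high line hippocampus arrays 7, 8 and 9 are among those where Otx2 departed. On array 7 Otx2 was far above its mean, and on array 8 it was below while other members were above. On array 9 Otx2, at 18.7, was the 1 member above its median.

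**Figure D3:**
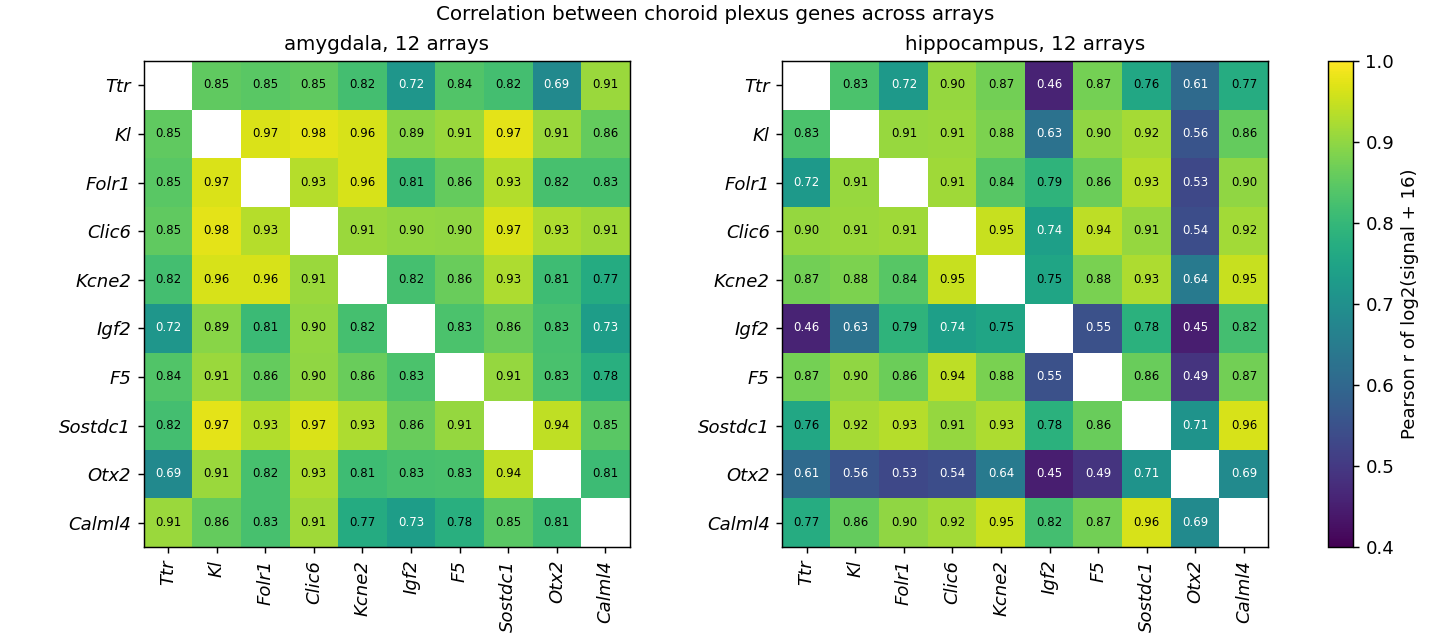
Pearson's r between each pair of the 10 genes over the 12 amygdala arrays (left) and the 12 hippocampus arrays (right), from log2(signal + 16); the diagonal is blank. The lowest r is 0.69 in amygdala and 0.45 in hippocampus, where the Otx2 row is the weakest.

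The correlations were computed again without extreme arrays and within the lines. With the 2 arrays farthest from the median of the first gene left out of each pair, the median r was 0.88 in amygdala, with a range of 0.73 to 0.98, and 0.83 in hippocampus, with a range of 0.22 to 0.97. Within the 6 arrays of a line the median r was 0.88 (high line) and 0.94 (low line) in amygdala, and 0.87 (high line) and 0.89 (low line) in hippocampus. The lowest r within a group was -0.04, for Igf2 with Otx2 in high line hippocampus, where 6 arrays give little precision. Within the low line hippocampus arrays the pairs of Otx2 had a median r of 0.91, against 0.27 in the high line. Otx2 was dim there, at 1.01 to 55.9 in the low line and 3.99 to 64.3 in the high line, so this contrast carries little weight. Because the arrays nearly form an upper and a lower set, r was also taken within the upper set alone. It had a median of 0.78 over the 7 upper amygdala arrays, with 45 of 45 pairs above 0, and of 0.74 over the 8 upper hippocampus arrays, with 41 of 45 above 0. The lower sets of 5 and 4 arrays are too small for a value. The upper set was picked by the scaled mean of these same members, and the pairs share members. These values are therefore descriptions, and the pairs are not separate observations.

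Probe sets of 1 gene were compared with each other. The other 3 probe sets of Ttr followed the first with r of 0.98 to 0.99 in both tissues, and the second probe sets of Clic6 (0.89 in amygdala, 0.84 in hippocampus), Sostdc1 (0.88 and 0.89) and F5 (0.69 and 0.88) also followed theirs. The second probe set of Kl followed with r of 0.41 and 0.47, and that of Igf2 with 0.10 and -0.06. Both are dim, at 1.30 to 18.8 for Kl and 2.46 to 28.7 for Igf2.

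No correlation was detected between the level in amygdala and the level in hippocampus under the same array number. Over the 12 numbers r was between -0.37 (Ttr) and 0.23 (Otx2), and none of the 10 members passed a two-sided permutation test with Benjamini-Hochberg adjustment over the 10 (lowest adjusted p = 0.861). Within the high line r lay mostly below 0, from -0.77 (Folr1) to 0.08 (Otx2). Within the low line it lay mostly above 0, from -0.21 (Ttr) to 0.55 (Igf2). The lowest unadjusted p of the exact permutation test within a line was 0.094 (Folr1, high line), and the members are not separate observations. The labels do not say that a number marks 1 mouse.

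Genes that shared the pattern were sought over all other named genes, by the smaller of their r in the 2 tissues with the scaled mean of the 10 members after group means were removed (12 arrays in each tissue). The 10 most alike were Kcnj13 (0.97 in both tissues), Ecrg4 (0.98 in amygdala, 0.97 in hippocampus), Sulf1 (0.95 and 0.94), Col8a1 (0.91 and 0.92), Igfbp2 (0.96 and 0.89), Cldn2 (0.95 and 0.88), Lbp (0.94 and 0.88), Steap1 (0.90 and 0.86), Aqp1 (0.86 and 0.94) and Cab39l (0.87 and 0.86). Kcnj13 encodes an inward rectifier potassium channel, Aqp1 a water channel and Cldn2 a claudin that makes tight junctions permeable to cations. All but Lbp, which encodes a lipopolysaccharide-binding protein, stood on 1 of 3 further lists of genes of the choroid plexus. These lists were also chosen with earlier results of these arrays known, so the match is a description. Kcnj13 ran from 11.4 to 318 in amygdala and from 39.1 to 346 in hippocampus.

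An r above 0.7 in both tissues was reached by 8 of 15 transporters, 4 of 11 epithelial and junction genes and 5 of 13 secreted proteins and receptors of the choroid plexus. Of all 18183 other named genes, 38 (0.209%) reached it, these 17 included. Because the lists were chosen with earlier results of these arrays known, these shares are descriptions. None of 14 ependymal genes, 14 meningeal and fibroblast genes, 9 endothelial genes, 8 genes of thalamus and habenula, 4 of red blood cells, 10 of hippocampus, 8 of amygdala or 6 of striatum did so. Single genes came near: Rsph1, a component of motile cilia, had r of 0.68 in amygdala and 0.75 in hippocampus, and Foxj1, the regulator of motile cilia, had 0.79 and 0.57. Some genes known from choroid plexus were not seen to follow the members in both tissues. Htr2c, the serotonin receptor 2C, which neurons also express, had r of -0.21 in amygdala and 0.75 in hippocampus. Krt8 had 0.53 in amygdala and -0.04 in hippocampus, and Trpv4 had 0.06 and 0.54. Lmx1a had -0.34 and 0.39, Bmp7 -0.27 and 0.11, and Stra6 -0.07 and 0.29. The lowest signals of Trpv4, Lmx1a, Bmp7 and Stra6 were under the constant added before taking logarithms, in both tissues. In amygdala Trpv4 ran only from 3.76 to 18.4 and Lmx1a from 1.27 to 34.3. A low r of these dim genes therefore carries little weight. Genes that followed could have low signals too: in amygdala Aqp1 ran from 4.03 to 63.7 and Cldn2 from 1.99 to 89.1. The lowest signals of Aqp1, Cldn2 and Foxj1 were under the same constant in both tissues. The r of Foxj1, which came near, needs the same caution.

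**Figure D4:**
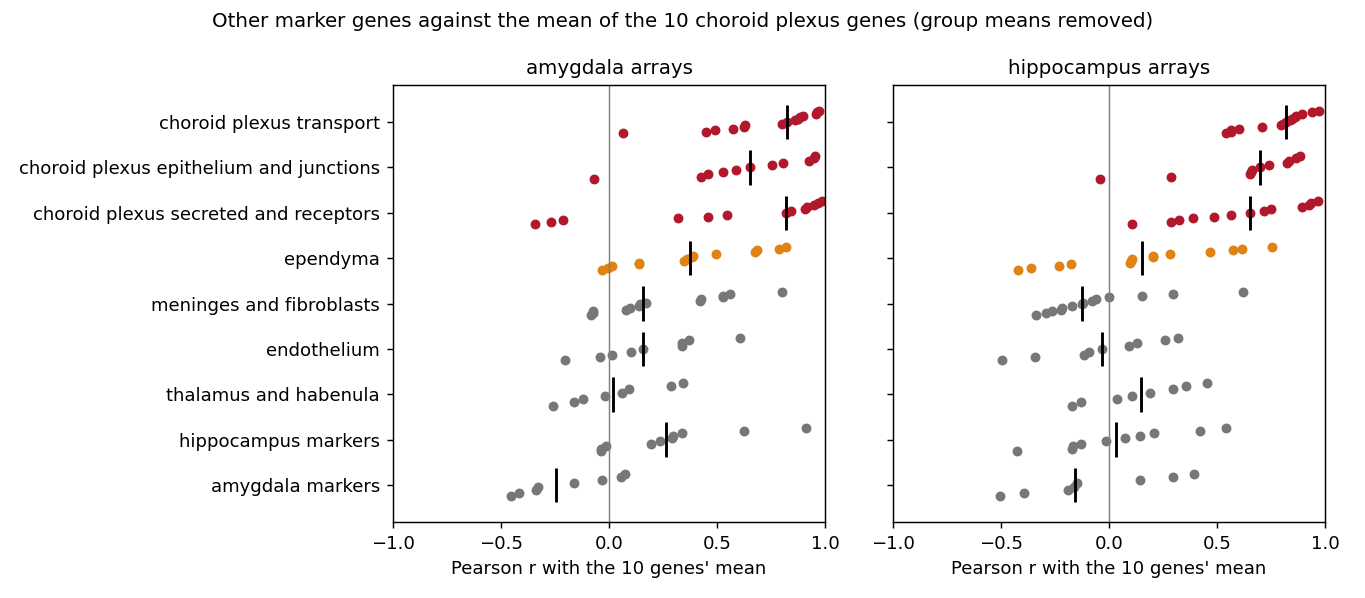
Pearson's r of single marker genes with the scaled mean of the 10 choroid plexus genes, over 12 amygdala arrays (left) and 12 hippocampus arrays (right) with group means removed; each point is a gene and the bar is the median of its list. The 3 choroid plexus lists have medians of 0.65 to 0.82 and the ependymal list 0.37 in amygdala and 0.15 in hippocampus.

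Between the lines no choroid plexus gene passed the test in either tissue. In amygdala 0 of the 18 probe sets were called by limma at an adjusted p under 0.05 (over all 45037 probe sets, 0.00222% were called), and 1 had an unadjusted p under 0.05. That was the dim second probe set of Kl (log2 difference -0.30, unadjusted p = 0.041 in limma). All 10 members had a lower mean in high line amygdala, with a median log2 difference, high line minus low line, of -0.39, against -0.0065 for all probe sets. Since the members rise and fall together on the arrays, the 10 signs are not separate observations. The largest was Ttr, at -0.61 ± 0.82 (SE, 6 arrays per line, limma adjusted p = 0.924), and its 95% interval of -2.39 to 1.16 admits large differences in both directions. With 1 array left out in turn the Ttr difference was between -1.06 and 0.014, the upper value without array 11 of the high line.

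In hippocampus 0 of 18 probe sets were called (0.0222% of all probe sets were), and 1 had an unadjusted p under 0.05, the dim second probe set of Igf2 (log2 difference -0.51, limma adjusted p = 0.365). The mean was higher in the high line for 8 members and lower for Ttr and F5, with a median log2 difference of 0.09, against 0.02 for all probe sets. The differences lay between -0.21 ± 0.55 (F5) and 0.23 ± 0.36 (Kl), SE with 6 arrays per line, at limma adjusted p of 0.796 to 0.988. The narrowest 95% interval was that of Igf2, from -0.21 to 0.60. For 0 of the 18 probe sets did the lines fail to overlap in either tissue, while 0.402% of all probe sets in amygdala and 0.637% in hippocampus had lines that did not overlap.

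The line effect in amygdala was also set against that in hippocampus. In the limma fit of the 4 group means 0 of 18 probe sets were called (0.0% of all probe sets were), 1 had an unadjusted p under 0.05, and the lowest adjusted p was 0.687. For the 10 members the amygdala value minus the hippocampus value was between -0.65 (Calml4) and -0.29 (F5) on the log2 scale, with SEs of 0.33 to 1.12. The median was -0.54, against -0.033 for all probe sets. As the members move together, their 10 signs are again not separate observations.

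Between the tissues 1 of the 18 probe sets was called, whereas 25.8% of all probe sets were. Kl was lower in amygdala, by -0.86 ± 0.30 on the log2 scale (amygdala minus hippocampus, SE, 12 arrays per tissue, limma adjusted p = 0.0404), with a 95% interval of -1.49 to -0.23. The tissues overlapped for Kl and for each of the other 17 probe sets, whereas 4.91% of all probe sets had tissues that did not overlap. The call of Kl was marginal: it was lost without any one of 13 of the 24 arrays, which are amygdala arrays 2, 3 and 5 of the low line and 8, 11 and 12 of the high line, and hippocampus arrays 3, 4 and 6 of the low line and 7, 8, 11 and 12 of the high line. Over all 24 omissions the difference stayed between -0.97 and -0.73, and the limma adjusted p between 0.0202 and 0.0729. Igf2, at -0.44 ± 0.17 (limma adjusted p = 0.0513), and Clic6, at 0.74 ± 0.33 (limma adjusted p = 0.11), missed the threshold. The other 7 members had differences between -0.54 (Ttr) and 0.12 (F5), with limma adjusted p of 0.375 to 0.888.

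**Figure D5:**
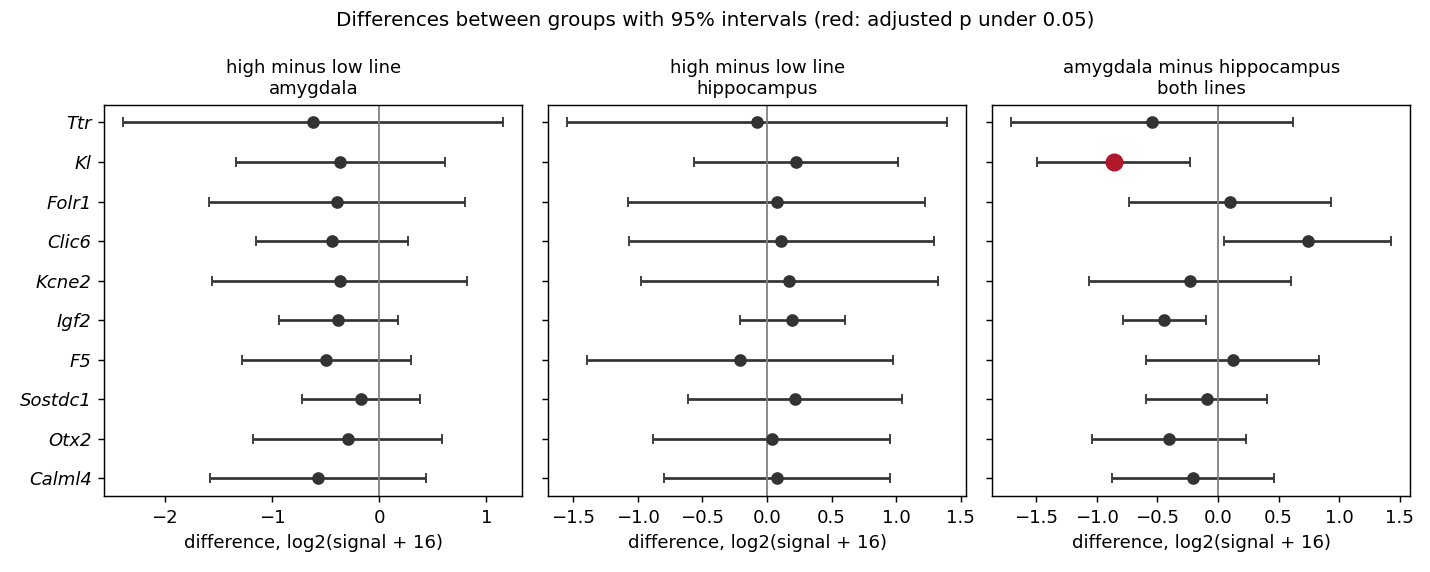
Differences of the 10 genes on the log2(signal + 16) scale, with 95% intervals from limma: high minus low line in amygdala (left), high minus low line in hippocampus (middle) and amygdala minus hippocampus (right). Red marks the 1 call, Kl at -0.86, and every interval of the line differences includes 0.

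Taken within a line, 2 of 18 probe sets were called in the high line and 19.1% of all probe sets were. Igf2 was lower in amygdala in the high line, by -0.73 ± 0.23 (limma adjusted p = 0.0299), as was the dim second probe set of Kl (-0.53, limma adjusted p = 0.0434), whose signals lie mostly under the added constant of 16. The probe set that stands for Kl was at -1.15 and was not called (limma adjusted p = 0.0642). The dim second probe set of Igf2 went the other way, at 0.34, and was not called either (limma adjusted p = 0.179). In the low line 0 of 18 probe sets were called, 2 had an unadjusted p under 0.05, and 13.5% of all probe sets were called. In the low line Igf2 stood at -0.15 ± 0.23 (limma adjusted p = 0.767), and the difference between the lines, -0.58 ± 0.33, was not called (limma adjusted p = 0.742).

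Since the arrays differ so much in choroid plexus signal, the tissues were also compared with the Ttr level of each array as a covariate, a choice made after the data were seen. The level was that of the probe set that stands for Ttr. The 4 Ttr probe sets were left out, and 3 of the other 14 were then called, where 25.3% of all probe sets were. At equal signal of that Ttr probe set, Clic6 was higher in amygdala on both of its probe sets, by 1.01 (limma adjusted p = 0.000381) and 0.50 (limma adjusted p = 0.00369). Kl was lower, by -0.61 (limma adjusted p = 0.0103). Igf2 was at -0.34 (limma adjusted p = 0.0677). Equal signal on the Ttr probe set used need not mean equal choroid plexus signal in the 2 tissues. It read 12028 to 12579 on amygdala arrays 6, 7 and 10, and 12162 to 12650 on hippocampus arrays 2, 3 and 7. On another Ttr probe set these amygdala arrays read 8905 to 11483, and these hippocampus arrays 5946 to 6611. The part of this in the differences was not tested. With the covariate 0 of 14 probe sets were called between the lines in amygdala or hippocampus.

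The other lists were set beside the members in the tissue fit without the covariate, in which 25.8% of all probe sets were called. Of 15 transporters of the choroid plexus 0 were higher and 2 lower in amygdala, Slc13a4, a sulfate transporter (-1.09, limma adjusted p = 0.00351), and Abca4 (-0.99, limma adjusted p = 0.00865). Of 11 epithelial and junction genes 1 was higher, the protease inhibitor Spint2 (0.80, limma adjusted p = 7.09e-07), and 0 were lower. Of 13 secreted proteins and receptors 2 were higher, Htr2c (1.59) and Ace (0.37), and 2 lower, the growth factor Bmp6 (-0.64) and the collagen-processing protein Pcolce (-0.88). The median log2 difference was -0.22 over the members, -0.13 over the transporters, 0.09 over the epithelial genes and 0.05 over the secreted proteins and receptors, against -0.02 for all probe sets. Between the lines 0 genes of these 3 lists were called in amygdala or hippocampus by limma; at an unadjusted p under 0.05 there were 1, 0 and 0 in amygdala and 1, 1 and 0 in hippocampus.

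Markers of the meninges and the ependyma, which adjoin these tissues, were set beside the members too. Of 14 meningeal and fibroblast genes 11 were lower in amygdala and 0 higher, where 25.8% of all probe sets were called in either direction. Their summed signal was 589 to 955 in high line amygdala and 734 to 1308 in low line amygdala, against 2031 to 2530 in high line hippocampus and 1499 to 1998 in low line hippocampus. Dcn alone gave 124 to 305 of it in amygdala and 681 to 1136 in hippocampus. Of 14 ependymal genes 1 was higher in amygdala, Rsph1 (0.84, limma adjusted p = 0.000779), and 0 were lower, a smaller share than among all probe sets. Their summed signal was 482 to 805 in high line amygdala and 502 to 866 in low line amygdala, against 432 to 743 in high line hippocampus and 523 to 648 in low line hippocampus. The part of either list in the differences of Kl and Clic6 was not tested. As a check of the tissue labels, 7 of 8 amygdala markers were higher in amygdala and 9 of 10 hippocampus markers were lower there, and Wfs1, higher in amygdala, was the exception.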

How the data were processed

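The authors deposited 1 linear intensity per probe set for each of 24 arrays; the signal algorithm is not given in the sources used here. The values show arrays scaled to a common mean of 150 after trimming 2% at each end. Of 45101 probe sets 64 controls were left out. Symbols came from the platform annotation, updated through a RefSeq table (GRCm38.p6): 34945 probe sets carry 1 symbol, 932 several and 9160 none.

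Intensities were tested as log2(value + 16), which understates changes of weak signals, with limma 3.58.1 in R 4.3.3 (lmFit and eBayes) and Benjamini-Hochberg adjustment over all 45037 probe sets. Each line comparison used the 12 arrays of its tissue; tissue comparisons used 4 group means over 24 arrays. Correlations used permutation tests (numpy 2.4.6), with exact orders for 6 arrays. The number of arrays and their spread limit the precision. The fits and the correlation test were tested on simulated data.

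The members, lists and tests were chosen with earlier results of these data known. All members are named; of the other lists, up to 4 called genes by lowest p, and the 10 genes most alike; the genes that came near or did not follow were picked after their values were seen. The labels do not say that an array number marks the same mouse in the 2 tissues, so no pairing was used. Same-numbered arrays did not deviate together (r of -0.05 to 0.05 over all probe sets). This cannot decide whether they share a mouse, since tissues of the same mouse need not deviate together over all probe sets. Alternatives were the added constant, a filter on low values, 2 other normalizations, an intensity trend, array number as a block and leaving out arrays.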

Additional observations from a re-analysis of the deposited data

Results flagged for a closer look

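The dim second probe set of Igf2 read 5.70 on array 4 of low line amygdala, far below the other 5 arrays of its group, with a gap to the nearest of them of 0.804 of the group's range. It was the only one of 72 groups (18 probe sets in 4 groups) in which 1 array stood apart in this way, and chance alone marks about 5% of groups. The brighter Igf2 probe set was not low on that array. No difference of a line effect between the tissues was called.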

How the results depend on the processing

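No member was called between the lines in amygdala or in hippocampus, nor when the line effects of both tissues were compared, under any alternative run. The tissue count of 1 changed. Adding 64 before the logarithm gave 2, dropping the dimmest 40% gave 2, and it was 2 after quantile normalization, 2 with an intensity trend and 2 without amygdala arrays 7 and 8 and hippocampus array 7 together, each time with Igf2 added (limma adjusted p of 0.0256 to 0.0435), and 3 with the Ttr covariate. With the array number as replicate block it was 0 (Kl limma adjusted p = 0.065); whether a number marks 1 mouse is not known from the labels. Leaving out 1 array in turn gave 0 to 2, with 0 in 11 of 24 omissions. Over the 90 pairs of members, 81 to 84 passed under the alternatives, against 83. Small differences changed sign without ever passing the threshold. The Otx2 line difference in hippocampus was -0.00151 with log2(value + 64), -0.020 after quantile normalization and -0.031 after median centring, and that of Igf2 was -0.16 over the mean of its probe sets. The tissue difference of Folr1 was -0.037 without the 3 arrays, and with the Ttr covariate those of Calml4, Sostdc1 and Kcne2 were 0.060, 0.080 and 0.097. With 1 array left out, the hippocampus line differences ran from -0.13 to 0.27 (Calml4), -0.19 to 0.23 (Otx2), -0.23 to 0.35 (Folr1), -0.21 to 0.40 (Clic6), -0.59 to 0.34 (Ttr), -0.072 to 0.52 (Kcne2) and -0.49 to 0.089 (F5), and the amygdala line difference of Ttr from -1.06 to 0.014. The tissue differences ran from -0.029 to 0.31 (Folr1), -0.20 to 0.0035 (Sostdc1) and -0.027 to 0.27 (F5), and the differences of line effects from -0.98 to 0.088 (Ttr) and -0.58 to 0.0013 (F5). Of all probe sets, 0 to 57 were called between lines in hippocampus under the alternatives, against 10, and 0 to 6 in amygdala, against 1. Signals of Otx2, Kcne2 and F5 near or under 16 limit what can be read from their low arrays. The cause of these changes was not tested.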

Other observations

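The summed signal of the 14 meningeal and fibroblast genes was higher on every high line hippocampus array (2031 to 2530) than on any low line hippocampus array (1499 to 1998), a pattern noticed after the values were seen. The sum is of linear signals, so bright genes weigh most, and Dcn alone was 681 to 1136 on the hippocampus arrays. Of the 14 genes, 0 were called between the lines there by limma (lowest adjusted p = 0.268), and 3 had an unadjusted p under 0.05. Over all 45037 probe sets 0.0222% were called in that comparison, 4040 had an unadjusted p under 0.05, and 0.637% had lines that did not overlap. The last share is of single probe sets and is no background for a sum. The median r of the 14 genes with the scaled mean of the 10 members was 0.16 over the 12 amygdala arrays and -0.12 over the 12 hippocampus arrays, but single genes went with the members: Lum had 0.53 in amygdala and 0.62 in hippocampus, and Mgp had 0.80 in amygdala and -0.12 in hippocampus.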
